A study of Mus musculus with 32 samples.

Results

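The genes that moved the same way in brain arteries of both Notch3 mutants, the Notch3-/- mouse and the TgNotch3R169C mouse, are described. All 32 libraries were placed in 1 model, and the 2 within-cohort differences, mutant minus its own controls, were averaged with equal weight. A gene was called when the quasi-likelihood test of this mean contrast gave an adjusted p below 0.05, and a called gene was counted as common when both mutants changed in the same direction, each with an unadjusted p below 0.05 in its own cohort. Of 18554 genes tested, with Notch3 itself left out, 86 were called (0.464%) and 35 were common (0.189%). Of the 86, 27 were higher (0.146%) and 59 lower (0.318%) in the mutants, and of the 35, 9 were higher (0.0485%) and 26 lower (0.14%).

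Brain arteries of 8 mice per group were profiled by stranded mRNA sequencing, 1 library per mouse. The study compared the mutants to ask whether the arterial defect of the CADASIL model resembles a change of NOTCH3 activity. Mice of the first cohort were Notch3-/- and Notch3+/+ and aged 3 months. Mice of the second carried the TgNotch3R169C transgene or were non-Tg, and were aged 12 months. The transgene is a rat Notch3 gene with a cysteine-altering CADASIL mutation, is integrated on the X chromosome and is carried on top of both mouse Notch3 copies, and neither cohort was treated. Both lines were on a C57BL/6 background. Age and line differ together between the cohorts and cannot be told apart, so each mutant was measured only against its own controls.

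NOTCH3 is the Notch receptor of arterial smooth muscle cells (SMCs) and pericytes. Ligand binding releases its intracellular domain, which joins the DNA-binding protein RBPJ, and this signal is known for maturing arterial SMCs and maintaining their contractile gene program. That program holds the smooth muscle actins and myosin, the tropomyosins and the kinase that phosphorylates myosin light chain, and many of its genes are controlled by serum response factor through the CArG box. CADASIL, caused by NOTCH3 mutations that change the number of cysteines, is known for deposits of the receptor's extracellular domain and for loss of arterial SMCs.

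Total counts ranged from 20289487 to 54481934 per library (median 33013620.5). Notch3 was at a normalized read count of 65.8 to 98.1 (CPM, scaled for library size and composition) in Notch3+/+ mice and at 13.7 to 18.5 in Notch3-/- mice, and it was at 60.1 to 85 in non-Tg and 108 to 219 in TgNotch3R169C mice, so the gene, left out below, moved in opposite directions as the genotypes say. The libraries held the RNA of arteries: the summed level of 8 SMC markers had group medians of 1187 to 2447 CPM, and no marker of that list was at 0. Choroid plexus markers exceeded 1000 CPM in 7 libraries (1 Notch3-/-, 2 TgNotch3R169C and 4 non-Tg), and pituitary markers exceeded 500 CPM in 3 (1 Notch3+/+ and 2 non-Tg). Without the 7 choroid plexus-rich libraries 16 genes were common and without the 3 pituitary-rich libraries 20, of which 13 and 15 were among the 35. The genes that stayed common without either set and without any single library numbered 7, of which Plin4, P2rx1, Asb2, Rasl12 and Agtr2 were lower and Cdh13 and Col10a1 higher. Each group held 4 libraries with Xist above 10 CPM, under the same 4 replicate numbers in all groups.

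Few genes of either mutant's response were shared. In the same model 173 genes (0.932%) were called in Notch3-/- mice and 20 (0.108%) in TgNotch3R169C mice. Over all genes tested, 8776 (47.3%) had fold changes of equal sign in the 2 mutants. With an unadjusted p below 0.05 in each, 84 genes (0.453%) moved the same way, 28 higher (0.151%) and 56 lower (0.302%), and 76 (0.41%) moved in opposite ways. The stricter test that takes the larger of the 2 p-values called 0 genes (0%), with a smallest adjusted p of 0.984, and 84 genes had an unadjusted larger p below 0.05. That count was also 0 with DESeq2 and with limma. The common genes therefore rest on the mean of both contrasts plus a weak condition on each mutant, not on a call in each: 24 of 35 were also called in Notch3-/- mice, 1 in TgNotch3R169C mice, and the same 1, Plin4, in both. Of the 51 called genes that were not common, 12 had opposite signs, 35 missed the condition in TgNotch3R169C mice and 4 in Notch3-/- mice. Of the same 51, 17 lay on chromosome 17, which carries Notch3. Most genes tested lay elsewhere: 17653 of 18554 were left without chromosome 17. Among the 35 common genes, 2 lay on it, Plin4 and C4b. With its genes left out, a setting chosen after seeing the data, 64 genes were called and 30 were common, all among the 35. The reason for the calls on chromosome 17 was not tested.

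**Figure D1:**
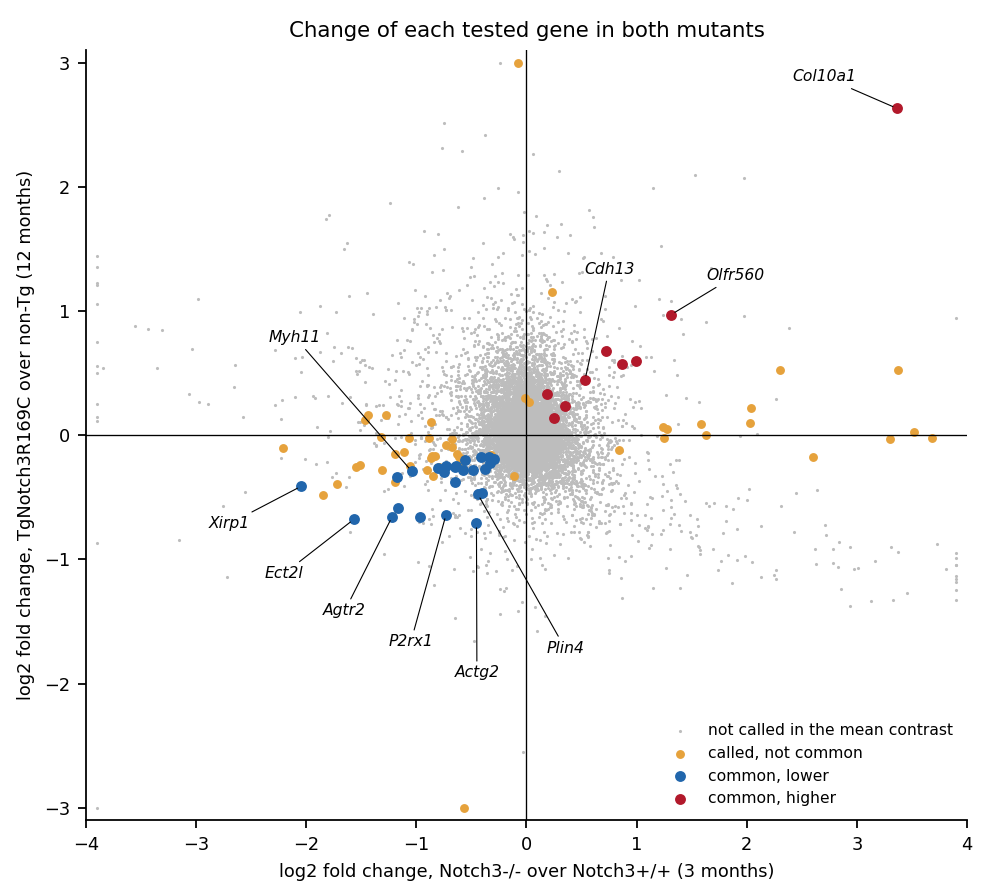
Log2 fold change of each tested gene in Notch3-/- mice (x axis) and TgNotch3R169C mice (y axis), with values beyond the axes drawn at their edge and Prl left out. The common genes lie in the lower left and upper right quadrants, and most of the 26 lower genes lie farther from 0 along the Notch3-/- axis.

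The size of the change was uneven between the mutants. The change was larger in Notch3-/- mice for 31 of the 35 common genes, 23 of 26 lower and 8 of 9 higher ones. The median log2 fold change of the lower genes was -0.65 in Notch3-/- and -0.29 in TgNotch3R169C mice, and that of the higher genes was 0.72 and 0.57, beside medians of -0.0025 and -0.0055 over all genes. A difference between the mutants was called for 64 genes of all tested (0.345%) and for 3 of the common ones, Xirp1, Susd5 and Myh11, which all fell more in Notch3-/- mice. In 24 of the 35 the unadjusted p in TgNotch3R169C mice was above 0.01, so the call of most common genes rests near the threshold in that cohort. The members closest to the adjusted threshold were Gm45670 (adjusted p = 0.0478) and C4b (0.0485), and the first genes outside it were Syde2 (0.0521) and Nos1 (0.0531). When each of the 32 libraries was left out in turn, C4b was called in 6 fits, Gm45670 in 7, Lvrn and Olfr560 in 9, Palld in 12, Tmem44 in 14, Tcap in 15 and Syt8 in 17.

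**Figure D2:**
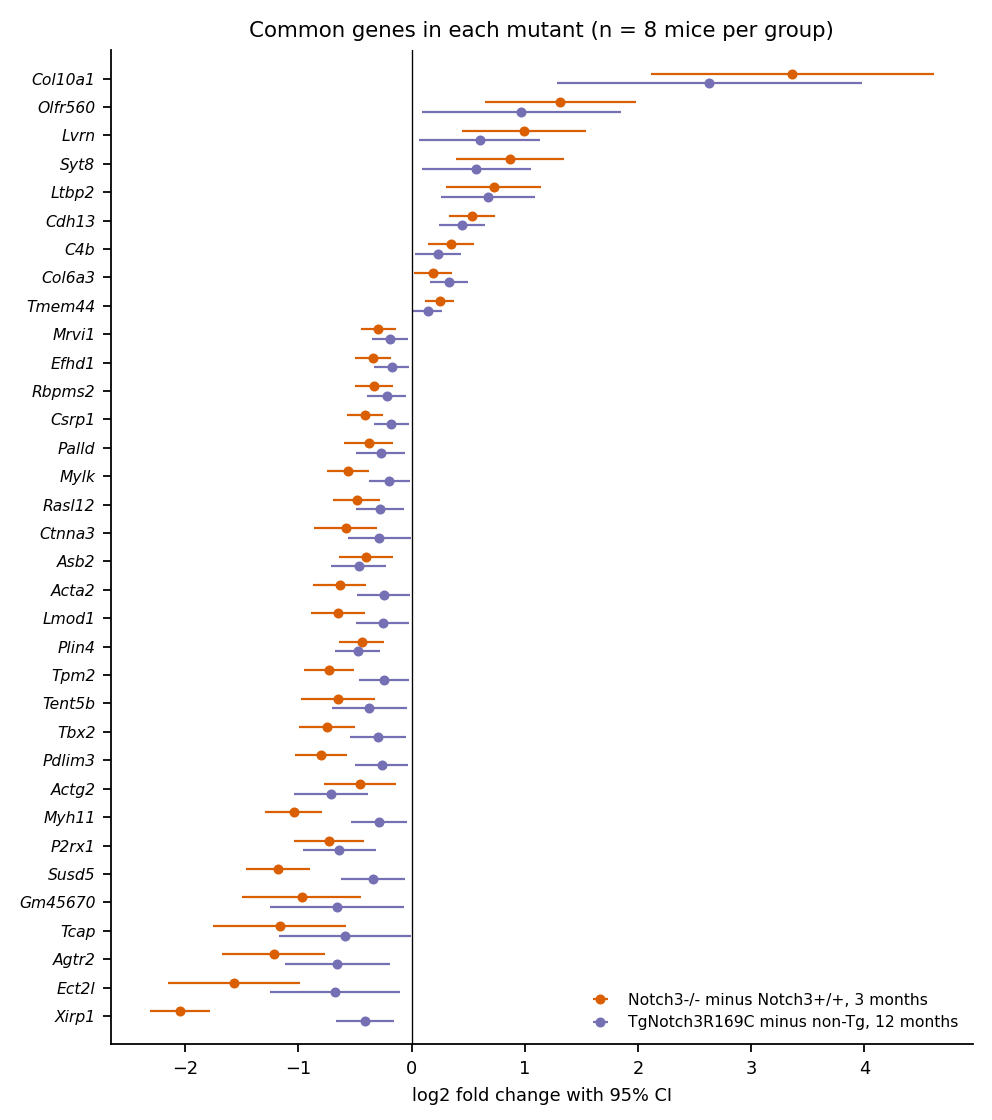
Log2 fold change with its 95% CI for 34 common genes in each mutant, Prl left out for scale (8 mice per group). Intervals of both mutants lie on the same side of 0 for each gene, and those of Xirp1, Susd5, Myh11, Pdlim3 and Tpm2 do not overlap between the mutants, although the difference was called only for the first 3.

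Among the lower genes, the contractile apparatus was the list with the most called members. Of 20 contractile genes tested, 10 were called lower and 0 higher, against 0.318% of all genes called lower, and 7 of the 10 were common: Myh11, Acta2, Actg2, Mylk, Tpm2, Lmod1 and Pdlim3. The median log2 fold change of the 20 was -0.47 in Notch3-/- and -0.18 in TgNotch3R169C mice, 19 had a negative value in the former and 18 in the latter. Over all 18554 genes, 9480 had a negative value in Notch3-/- and 9694 in TgNotch3R169C mice. The counts of called and common contractile genes moved with the libraries and covariates used. Leaving out 1 library gave 9 to 12 contractile genes called lower and 1 to 8 common, with 1 common gene without TgNotch3R169C replicate 5, without non-Tg replicate 1 or without non-Tg replicate 5. Without the choroid plexus-rich libraries 7 were called lower and 1, Tpm2, was common, and without the pituitary-rich libraries 9 were called lower and 1, Actg2, was common. With all libraries and the choroid plexus marker level as a covariate, 14 were called lower and 11 were common. With the level of 10 neuron markers as a covariate 9 were called lower and again Actg2 alone was common. The summed neuron markers were at 285.2 to 1053 CPM (median 518.1) in non-Tg and 439.1 to 1378 (median 747.7) in TgNotch3R169C mice, with 0 of 10 called, and their part in the contractile values was not tested further. In bulk arteries, fewer SMCs and less RNA per SMC cannot be told apart.

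Myh11, the smooth muscle myosin heavy chain, was at 482 to 951 CPM (median 660) in Notch3+/+ mice and 275 to 418 (median 315) in Notch3-/- mice. In the older cohort it was at 255 to 422 (median 351) in non-Tg and 221 to 354 (median 293) in TgNotch3R169C mice. The groups were apart at 3 months and overlapped at 12 months, with each TgNotch3R169C mouse below the non-Tg mean. The log2 fold change was -1.04 (95% CI -1.29 to -0.79) in Notch3-/- and -0.29 (-0.54 to -0.04) in TgNotch3R169C mice, and the mean contrast was -0.67 ± 0.09 (SE; adjusted p = 2.59e-05). The change in TgNotch3R169C mice was smaller by 0.75 (adjusted p of the difference = 0.0399).

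Acta2, which encodes smooth muscle alpha-actin, was at 642 to 1215 CPM (median 846) in Notch3+/+ and 464 to 741 (median 522) in Notch3-/- mice. It was at 352 to 544 (median 450) in non-Tg and 293 to 456 (median 385) in TgNotch3R169C mice. Both cohorts overlapped. The mean contrast was -0.44 ± 0.08 (SE; adjusted p = 0.00285), made of -0.64 in Notch3-/- and -0.25 in TgNotch3R169C mice, where the unadjusted p was 0.0393.

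Actg2, the gamma-actin of smooth muscle, was the contractile gene with the larger change in TgNotch3R169C mice. Non-Tg mice were at 5.16 to 9.11 CPM (median 6.67) and TgNotch3R169C mice at 2.94 to 5.85 (median 3.99), while Notch3+/+ mice were at 11.4 to 25.4 (median 14.3) and Notch3-/- mice at 8.14 to 14.4 (median 11.5). All 8 mutant mice of each cohort were below their control mean, although the ranges met. Its log2 fold change was -0.71 (95% CI -1.04 to -0.38) in TgNotch3R169C and -0.45 (-0.77 to -0.14) in Notch3-/- mice, a difference between the mutants of -0.26 (-0.71 to 0.20).

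Mylk, the kinase of myosin light chain, fell by 0.38 ± 0.06 (SE) on the log2 scale in the mean contrast (adjusted p = 0.00098), from medians of 382 to 282 CPM at 3 months and 256 to 228 CPM at 12 months. Tpm2, a tropomyosin that lies along the actin filament, fell by 0.49 ± 0.08 (adjusted p = 0.000394), and Lmod1, an actin filament nucleator of smooth muscle, by 0.45 ± 0.08 (adjusted p = 0.00232). Pdlim3, which binds alpha-actinin at the anchor of actin filaments, fell by 0.53 ± 0.08 (adjusted p = 0.000222). For these 4 genes the mutant and control mice did not overlap at 3 months and overlapped at 12 months. At 12 months the log2 fold changes were -0.20 for Mylk, -0.25 for Tpm2, -0.25 for Lmod1 and -0.27 for Pdlim3, with unadjusted p-values of 0.0270 to 0.0362.

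The contractile genes that were called without being common were Cnn1 (calponin), Tagln (transgelin) and Myl9 (a regulatory light chain of myosin). Each had a negative value in both mutants, and each missed the condition in TgNotch3R169C mice, where the log2 fold changes were -0.26 for Cnn1 (95% CI -0.55 to 0.04), -0.15 for Tagln (-0.40 to 0.10) and -0.17 for Myl9 (-0.41 to 0.06). Des, the intermediate filament protein desmin, had opposite signs, 0.28 in Notch3-/- and -0.22 in TgNotch3R169C mice, and was not called (adjusted p = 0.966). Cald1 (caldesmon) and Synpo2 (synaptopodin 2) also had opposite signs and were not called.

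Other lower genes encode proteins that bind actin or its anchors. Xirp1, a Xin-repeat protein that binds actin filaments, showed the lowest p of all genes in the mean contrast. It was at 5.82 to 10.2 CPM (median 8.23) in Notch3+/+ mice and 1.24 to 2.35 (median 2.03) in Notch3-/- mice, which did not overlap. Non-Tg mice were at 3.71 to 4.93 (median 4.48) and TgNotch3R169C mice at 2.62 to 4.56 (median 3.13), where 7 of 8 were below the non-Tg mean and the ranges overlapped. The log2 fold change was -2.04 (95% CI -2.31 to -1.78) in Notch3-/- and -0.41 (-0.67 to -0.15) in TgNotch3R169C mice, and the difference between them was 1.63 (adjusted p = 1.99e-06). Without the choroid plexus-rich libraries the value in TgNotch3R169C mice was -0.28 with an unadjusted p of 0.118, and Xirp1 was called but not common. The Xirp1 locus overlaps Cx3cr1, a receptor gene of microglia, on the same strand.

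Csrp1, a LIM protein of the actin cytoskeleton, fell by 0.29 ± 0.05 (SE) on the log2 scale (adjusted p = 0.0028), and Palld, an actin-bundling scaffold, by 0.33 ± 0.08 (adjusted p = 0.0346). Tcap, better known from the sarcomere of striated muscle, fell by 0.88 ± 0.20 (adjusted p = 0.0348) from 14 to 77 reads per Notch3+/+ library and 15 to 33 per non-Tg library. Ctnna3, an alpha-catenin of cell junctions, fell by 0.43 ± 0.10 (adjusted p = 0.0248), and the 2 groups at 3 months did not overlap. In TgNotch3R169C mice its log2 fold change was -0.28 (unadjusted p = 0.0456), and 5 of 8 were below the non-Tg mean. When each library was left out in turn, Ctnna3 was common in 14 of 32 fits. Skeletal muscle markers had summed group medians of 3.95 to 4.75 CPM, and 0 of 6 were called.

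The receptors of vasoactive signals among the common genes were P2rx1 and Agtr2. P2rx1, the ATP-gated cation channel through which sympathetic nerves constrict arteries, was at 12.7 to 24.7 CPM (median 17.1) in Notch3+/+ and 8.22 to 13.2 (median 10.8) in Notch3-/- mice. It was at 5.35 to 9.58 (median 7.62) in non-Tg and 3.15 to 6.36 (median 4.94) in TgNotch3R169C mice. Every mutant mouse was below the mean of its controls, with some overlap of the ranges in both cohorts. The fold of the control level was 0.603 in Notch3-/- and 0.643 in TgNotch3R169C mice, and the mean contrast was -0.68 ± 0.11 (SE; adjusted p = 0.0005). The difference between the mutants was 0.09 (95% CI -0.35 to 0.54). Of 12 purinergic and adenosine receptors tested, P2rx1 was the only one called.

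Agtr2, the type 2 receptor of angiotensin II, lies on the X chromosome and was at 1.38 to 2.67 CPM (median 2.12) in Notch3+/+ and 0.349 to 1.49 (median 0.933) in Notch3-/- mice. Non-Tg mice were at 0.727 to 1.74 (median 1.22) and TgNotch3R169C mice at 0.581 to 1.1 (median 0.752). The ranges overlapped in both cohorts, and all 8 mutant mice of each lay below the control mean. It fell by 0.94 ± 0.16 (SE) on the log2 scale (adjusted p = 0.00107). Among 22 vasoactive G protein-coupled receptors, a list that did not hold Agtr2, 0 were called, and the medians were -0.05 in Notch3-/- and 0.13 in TgNotch3R169C mice.

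Of intracellular signaling genes, Mrvi1, a substrate of the cGMP-dependent kinase that restrains calcium release, fell by 0.24 ± 0.05 (SE) on the log2 scale (adjusted p = 0.0269) and was the 1 called gene of 13 in the nitric oxide and cGMP pathway. Mrvi1 was called in 21 of 32 fits without 1 library. Without the choroid plexus-rich (adjusted p = 0.0816) or the pituitary-rich libraries (0.12) Mrvi1 was not called. Rasl12, a Ras-like GTPase, fell by 0.38 ± 0.07 (adjusted p = 0.00451). Kcnmb1, the beta subunit of the calcium-activated potassium channel of SMCs, was called (-0.41, adjusted p = 0.0346) without being common, since its log2 fold change in TgNotch3R169C mice was -0.22 (95% CI -0.50 to 0.05). It was the 1 called gene among 26 artery channels, which had medians of -0.11 in Notch3-/- and 0.13 in TgNotch3R169C mice.

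Tbx2, a T-box transcription factor, was at 13.6 to 27.1 CPM (median 19) in Notch3+/+ and 9.08 to 14.7 (median 11.4) in Notch3-/- mice, and at 15.6 to 25.8 (median 18.2) in non-Tg and 13.7 to 18.4 (median 15.5) in TgNotch3R169C mice. Ranges overlapped in both cohorts. The mean contrast was -0.52 ± 0.09 (SE; adjusted p = 0.000812). Susd5, a membrane protein with a sushi domain, was at 21.2 to 38.6 CPM (median 25.7) in Notch3+/+ and 10.1 to 15.8 (median 11.6) in Notch3-/- mice, which were apart, and at 12.1 to 21.1 (median 15.2) in non-Tg and 10.1 to 16.1 (median 12.2) in TgNotch3R169C mice. Its mean contrast was -0.76 ± 0.10 (adjusted p = 2.57e-05).

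Xirp1, Susd5 and Tbx2 belong to the 11 NOTCH3 target genes that the study examined. The study took them from earlier work and showed them in these same samples, so their counts are given as a description. It reported that all 11 fell significantly in Notch3-/- mice and that none changed significantly in TgNotch3R169C mice. Here too the 3 were not called in TgNotch3R169C mice by themselves (adjusted p = 0.339 for Xirp1, 0.547 for Susd5 and 0.548 for Tbx2). Of the 11, 6 were called lower in the mean contrast, against 0.318% of all genes, and these 3 were common, against 0.14% common and lower. All 11 had negative values in Notch3-/- mice. The medians of the 11 were -1.14 in Notch3-/- and -0.03 in TgNotch3R169C mice, where 7 of 11 were lower. The other called targets, Pln (phospholamban), Sorbs2 and S1pr3 (a sphingosine 1-phosphate receptor), each fell more in Notch3-/- than in TgNotch3R169C mice, with differences of 1.03 (adjusted p = 0.0106), 0.66 (adjusted p = 0.0108) and 0.64 (adjusted p = 0.0368). Their log2 fold changes in TgNotch3R169C mice were -0.28 for Pln (95% CI -0.58 to 0.02), -0.17 for Sorbs2 (-0.36 to 0.03) and -0.03 for S1pr3 (-0.24 to 0.18).

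Plin4, which coats lipid droplets, was the 1 gene called in each mutant by itself. It was at 50.1 to 79.4 CPM (median 57.6) in Notch3+/+ and 35.5 to 59.3 (median 43.2) in Notch3-/- mice. Non-Tg mice were at 51.4 to 64.5 (median 58.5) and TgNotch3R169C mice at 30.2 to 48 (median 43.5). The groups overlapped at 3 months and were apart at 12 months. The log2 fold change was -0.44 (95% CI -0.64 to -0.24; adjusted p = 0.0154) in Notch3-/- and -0.47 (-0.67 to -0.28; adjusted p = 0.0352) in TgNotch3R169C mice, a difference of -0.03 (-0.31 to 0.25). Plin4 lies on chromosome 17, as Notch3 does, and overlaps Hdgfl2 on the opposite strand. It was the 1 called gene of 14 perilipin and lipid droplet genes, whose medians were 0.03 and -0.03.

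Asb2, the substrate-binding part of a ubiquitin ligase that acts on filamins, had changes of like size as well, -0.40 in Notch3-/- and -0.47 in TgNotch3R169C mice (mean contrast -0.43 ± 0.08, SE; adjusted p = 0.00539). The control medians were 34.7 and 32.8 CPM and the mutant medians 28.7 and 23, and the ranges overlapped in both cohorts. Smaller common decreases were those of Efhd1, a calcium-binding protein of mitochondria (-0.26 ± 0.05, adjusted p = 0.0123), and Rbpms2, an RNA-binding protein of smooth muscle (-0.28 ± 0.06, adjusted p = 0.0151). Tent5b, of a family of poly(A) polymerases, fell by 0.51 ± 0.11 (adjusted p = 0.025), with -0.65 in Notch3-/- and -0.37 in TgNotch3R169C mice. It was called in 30 of 32 fits without 1 library. Without the choroid plexus-rich (adjusted p = 0.397) or the pituitary-rich libraries (0.179) Tent5b was not called. Ect2l fell by 1.12 ± 0.20 (adjusted p = 0.00211) at 5 to 71 reads per library, and the predicted gene Gm45670, which overlaps Dhx32, fell at 2 to 27 reads per library.

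Prl, the prolactin gene of the pituitary, met the rule through few libraries. Its level was 0 to 5815 CPM (median 2.15) in Notch3+/+ and 0 to 11.5 (median 1.13) in Notch3-/- mice, and 0 to 467 (median 2.43) in non-Tg and 0 to 2.76 (median 0.288) in TgNotch3R169C mice. The highest controls were the 3 pituitary-rich libraries. Without these libraries its log2 fold change in the mean contrast went from -7.56 to -0.67 (adjusted p = 0.96), it was -3.71 and not called without Notch3+/+ replicate 5 alone, and 1 of 6 pituitary markers, Prl, was called in all.

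**Figure D3:**
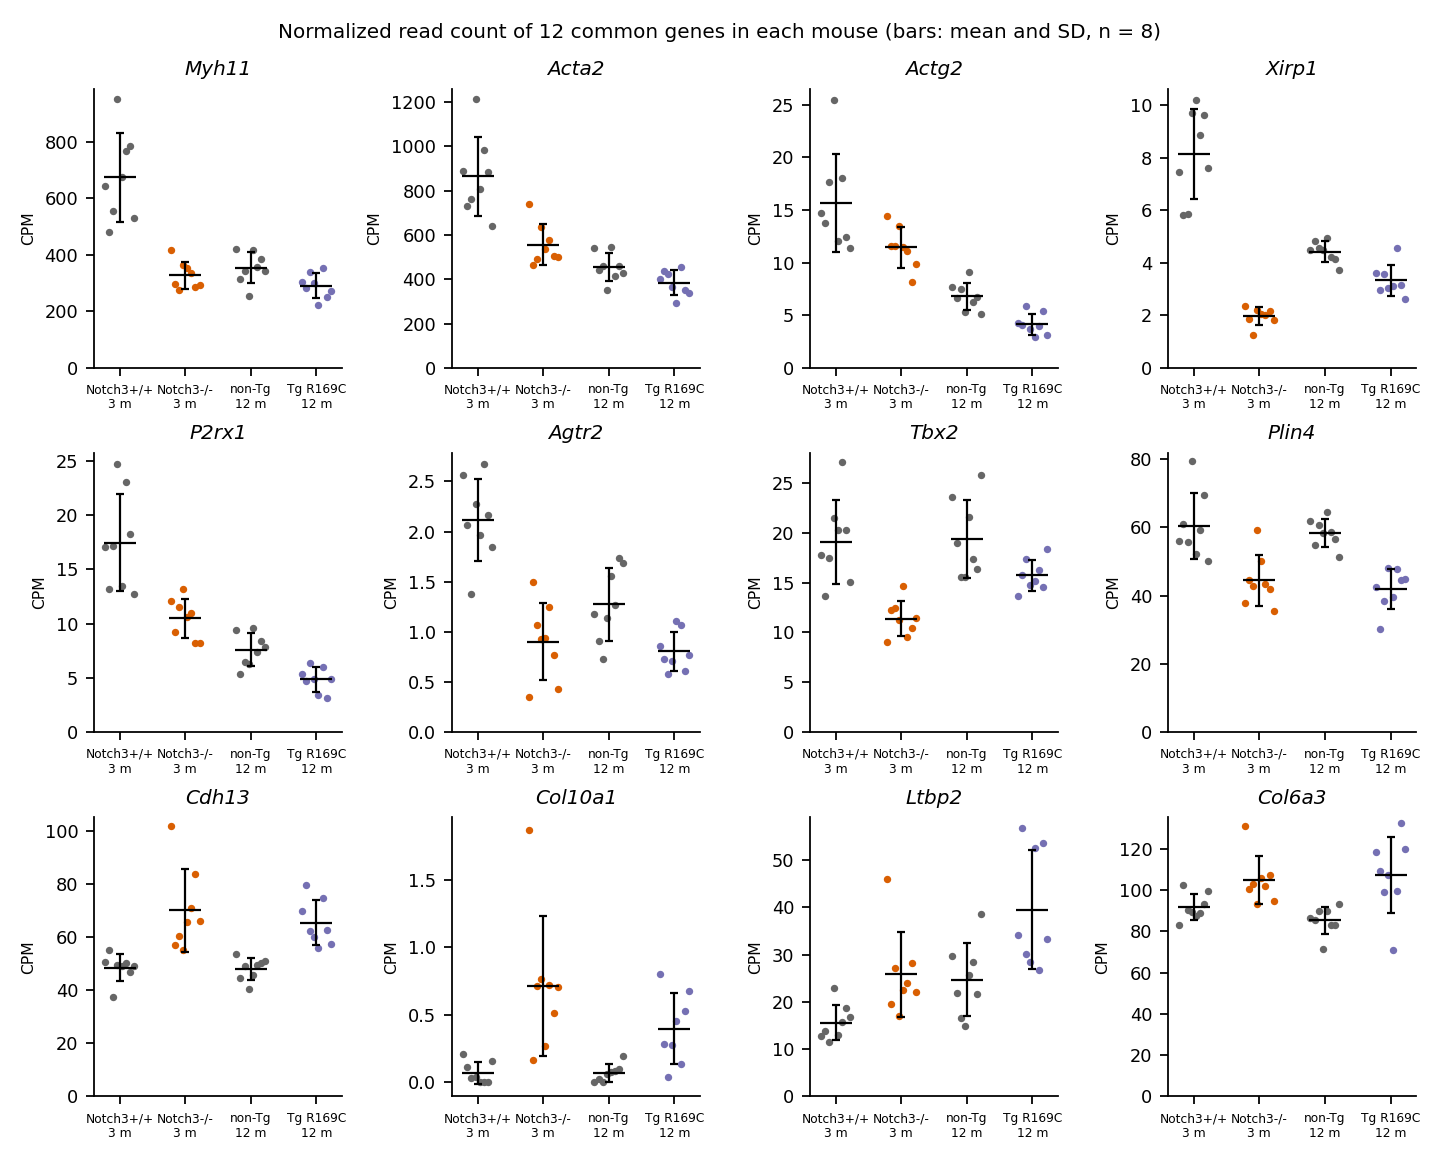
Normalized read count (CPM, y axis from 0) of 12 common genes in each of the 32 mice by group, with mean and SD (n = 8). For Plin4 the TgNotch3R169C and non-Tg mice do not overlap, for Myh11 and Xirp1 the Notch3-/- and Notch3+/+ mice do not, and Notch3-/- replicate 1 is the highest of its group for Cdh13, Col10a1, Ltbp2 and Col6a3.

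Ordered by p, the first of the 9 higher genes were Cdh13, Col10a1, Ltbp2 and Col6a3. Cdh13, or T-cadherin, a cadherin held to the membrane by a lipid anchor, was at 37.2 to 55.1 CPM (median 49.3) in Notch3+/+ and 55 to 102 (median 65.8) in Notch3-/- mice. It was at 40.5 to 53.5 (median 49.3) in non-Tg and 55.9 to 79.6 (median 62.5) in TgNotch3R169C mice. The groups were apart at 12 months and overlapped at their edges at 3 months. The log2 fold change was 0.53 (95% CI 0.33 to 0.74) in Notch3-/- and 0.44 (0.24 to 0.65) in TgNotch3R169C mice, with a difference of -0.09 (-0.37 to 0.20), and the mean contrast was 0.49 ± 0.07 (SE; adjusted p = 0.000131). Of 18 cadherins tested, Cdh13 was the only one called.

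Col10a1, the collagen chain of hypertrophic cartilage, rose from a few reads. It had 0 to 7 reads per library in Notch3+/+ and 6 to 59 in Notch3-/- mice, and 0 to 4 in non-Tg and 1 to 28 in TgNotch3R169C mice. In CPM the medians were 0.0302 and 0.709 at 3 months and 0.0663 and 0.366 at 12 months, and the ranges overlapped in both cohorts. The log2 fold change was 3.36 (95% CI 2.11 to 4.61) in Notch3-/- and 2.63 (1.28 to 3.98) in TgNotch3R169C mice, and the mean contrast was 3.00 ± 0.45 (SE; adjusted p = 0.00021). In TgNotch3R169C mice, replicate 3 (a single read, 0.0342 CPM) and replicate 6 (0.13 CPM) lay within the non-Tg range, whose highest value was 0.193. In Notch3-/- mice, replicate 2 (0.166 CPM) lay below the highest Notch3+/+ value (0.204). The gene overlaps Nt5dc1 on the opposite strand.

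Ltbp2, a protein of elastic fibres related to the binders of latent TGF-beta, was at 11.5 to 22.9 CPM (median 14.7) in Notch3+/+ and 17 to 46.1 (median 23.2) in Notch3-/- mice, and at 15 to 38.6 (median 23.7) in non-Tg and 26.8 to 56.8 (median 33.7) in TgNotch3R169C mice. The ranges overlapped, and each mutant mouse was above the mean of its controls. Its mean contrast was 0.70 ± 0.14 (SE; adjusted p = 0.0112), with 0.72 and 0.68 in the 2 mutants, and 0.65 without the choroid plexus-rich libraries (adjusted p = 0.175). Adamtsl2, a microfibril-associated protein, was the other called gene of 23 in the elastic fibre list, but its change was larger in TgNotch3R169C mice (1.16) than in Notch3-/- mice (0.23, 95% CI -0.00285 to 0.46), with a difference of 0.93 (adjusted p = 0.00223), so it was not common.

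Col6a3, a chain of microfibrillar type VI collagen, was at medians of 90 and 103 CPM at 3 months and 86 and 108 at 12 months. It rose by 0.26 ± 0.06 (SE) on the log2 scale (adjusted p = 0.0278), and 7 of 8 TgNotch3R169C mice and 8 of 8 Notch3-/- mice were above the control mean. Of 25 collagen chains tested, Col10a1 and Col6a3 were the 2 called, and the list's medians were 0.03 in Notch3-/- and 0.11 in TgNotch3R169C mice. Fibroblast markers, 10 in all, had 0 called and summed group medians of 5089 to 5597 CPM, and endothelial markers, also 10, had 0 called.

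C4b, a complement component, had medians of 243 and 312 CPM at 3 months and 332 and 400 at 12 months, a mean contrast of 0.29 ± 0.07 (SE; adjusted p = 0.0485). It lies on chromosome 17 and has a near-identical neighbour, C4a, with which it may share reads, and it was the 1 called gene of 14 in the complement list. Tmem44, a membrane protein, rose by 0.20 ± 0.04 (adjusted p = 0.0337). Syt8, a synaptotagmin, rose by 0.72 ± 0.17 (adjusted p = 0.0346), Lvrn, an aminopeptidase, by 0.80 ± 0.19 (adjusted p = 0.0409) and the odorant receptor gene Olfr560 by 1.14 ± 0.27 (adjusted p = 0.0446). The last 3 were counted at 0 to 46 reads per library, and Olfr560 overlaps Olfr78 on the same strand. Olfr560 had 0 to 4 reads in non-Tg and 1 to 7 in TgNotch3R169C libraries, and 5 of 8 TgNotch3R169C mice were above the non-Tg mean.

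Complete separation of a mutant from its controls was rare among these genes. Notch3-/- and Notch3+/+ mice did not overlap for 8 of the 35 (0.307% of all genes did not), and TgNotch3R169C and non-Tg mice for 2, Plin4 and Cdh13 (0.135%). No gene, common or not, was apart the same way in both cohorts (0%).

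Beyond the lists already given, the gene lists held few or no called genes. Of 22 Notch pathway genes, 0 were called and 11 had positive values in both mutants, beside 4078 of all 18554 genes. In the lists of basement membrane and deposit proteins (20 tested), TGF-beta and BMP genes (21), integrins (17), stress and heat shock genes (19) and circadian clock genes (17), 0 genes were called. All 19 interferon response genes had positive values in Notch3-/- and negative values in TgNotch3R169C mice (medians 0.53 and -0.15), and 19 of 21 immediate early genes had negative values in Notch3-/- mice and 1 of 21 in TgNotch3R169C mice (medians -0.35 and 0.43). In the mean contrast 0 genes of either list were called. Of 26 sterol and fatty acid synthesis genes, 0 had negative values in TgNotch3R169C and 21 in Notch3-/- mice, and Acaca, the carboxylase that begins fatty acid synthesis, was called (0.15, adjusted p = 0.0346) with a log2 fold change of 0.27 (95% CI 0.17 to 0.36) in TgNotch3R169C and 0.03 (-0.07 to 0.12) in Notch3-/- mice.

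**Figure D4:**
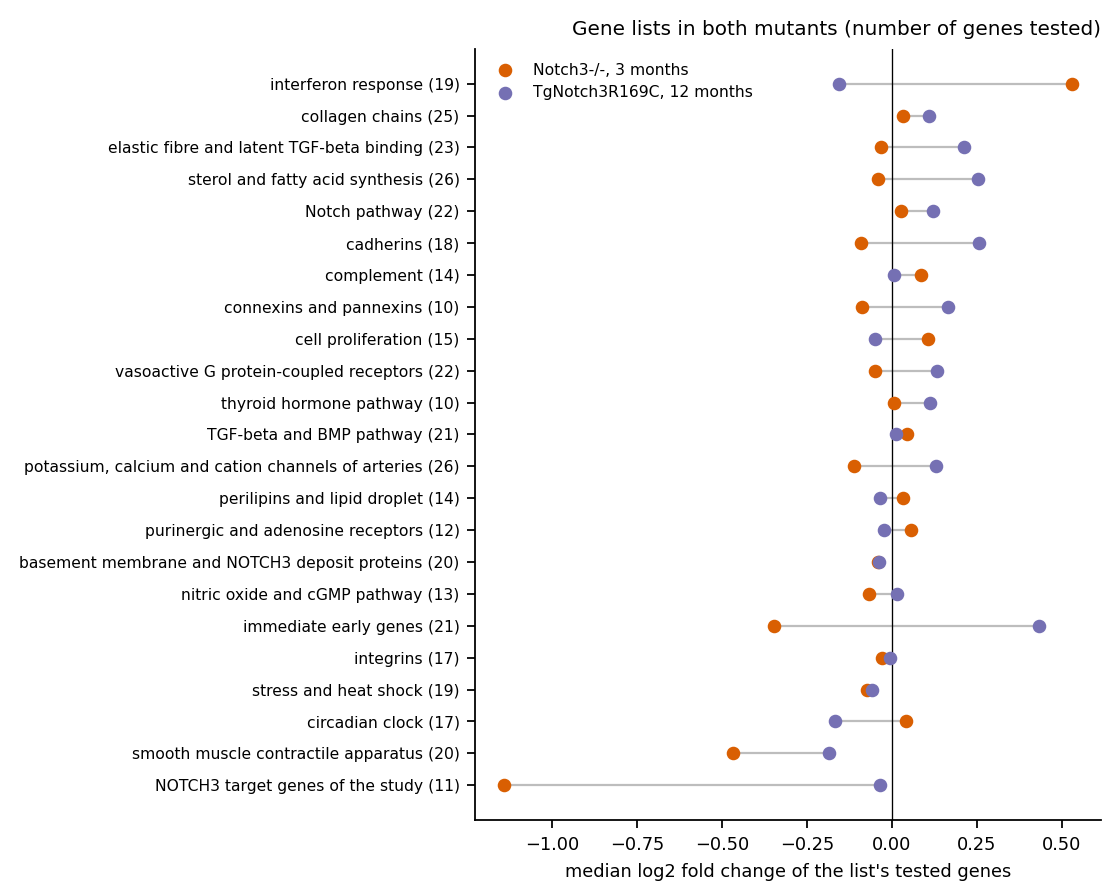
Median log2 fold change of 23 gene lists in Notch3-/- mice and in TgNotch3R169C mice, with the number of genes tested in parentheses. The contractile list is below 0 in both mutants (-0.47 and -0.18), and the interferon and immediate early lists lie on opposite sides of 0.

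The common genes were then compared with SMC markers from mouse to mouse. The group means were removed, and each gene was correlated over the 32 mice with the average of Tagln, Cnn1, Des and Myocd, the 4 SMC markers that were not common genes. This measure does not use the differences between groups by which the genes were chosen, and the mice share library depth and tissue composition within it. Of 18550 genes, 0.868% varied positively with the markers at an adjusted permutation p below 0.05 (100000 permutations within groups), and the median r was -0.01. Of the 26 lower genes 14 did, with a median r of 0.65. The 9 higher genes had r between -0.04 and 0.46, and 0 passed.

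Acta2 varied most closely with the 4 markers (Pearson's r = 0.917, Spearman's rho = 0.905, permutation p = 1e-05 for both, the smallest that these permutations can give, adjusted p = 0.00452 and 0.0064, and r = 0.878 without the 2 mice farthest from the median). Csrp1 (r = 0.876), Pdlim3 (r = 0.861) and Myh11 (r = 0.85) followed, and P2rx1, a receptor, also varied with them (r = 0.733, rho = 0.765, permutation p = 1e-05, adjusted p = 0.00452 and 0.0064, r = 0.704 without the 2 mice). Other lower genes did not pass. Plin4 had r = 0.406 (rho = 0.378, permutation p = 0.038 and 0.045, adjusted p = 0.264 and 0.322, r = 0.415 without the 2 mice), Tbx2 had r = 0.108 (rho = 0.133, permutation p = 0.582 and 0.489, adjusted p = 0.814 and 0.779, r = 0.165) and Agtr2 had r = -0.15 (rho = 0.033, permutation p = 0.475 and 0.868, adjusted p = 0.749 and 0.956, r = 0.00371). Xirp1 lay between (r = 0.535, rho = 0.544, permutation p = 0.00468 and 0.00238, adjusted p = 0.134 and 0.116, r = 0.463).

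**Figure D5:**
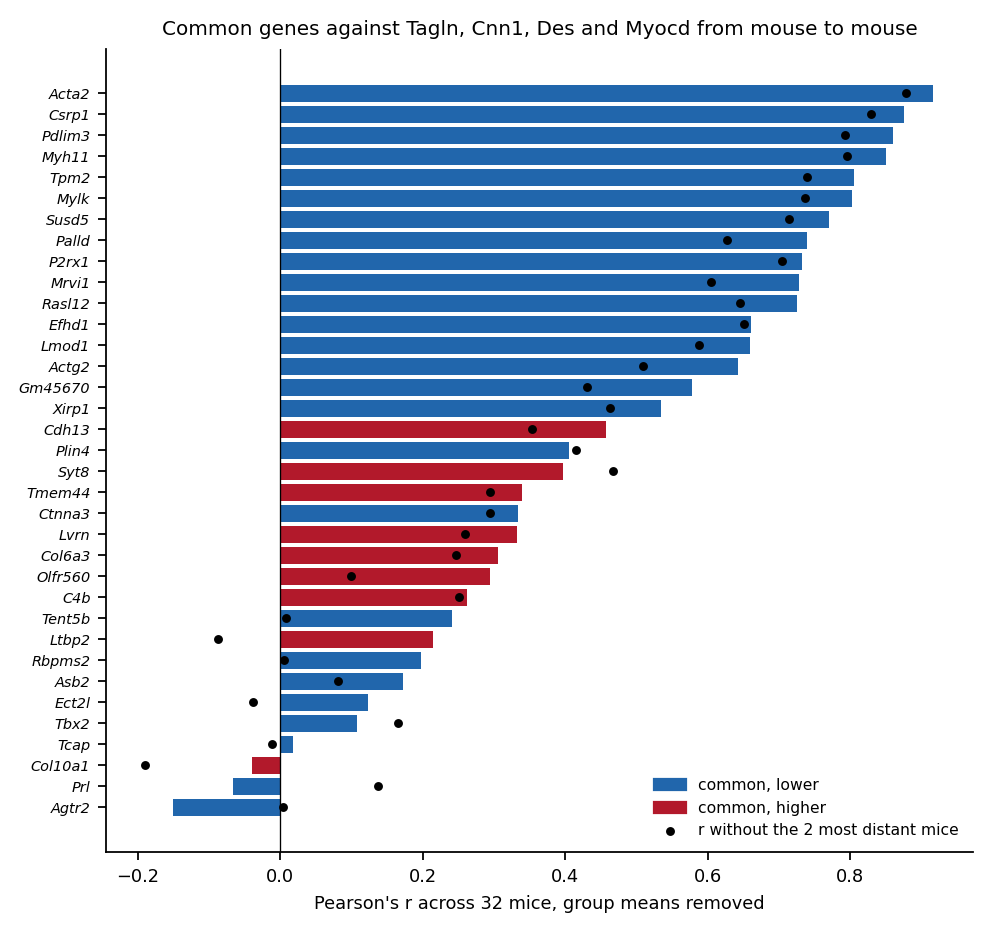
Pearson's r of each common gene with the mean of Tagln, Cnn1, Des and Myocd across 32 mice after group means were removed, with r without the 2 most distant mice as points. Contractile genes lie at the top, with Acta2 at 0.917, and Agtr2, Tbx2, Tcap and Col10a1 lie near 0.

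The summed SMC markers had lower medians in both mutants, but 4 of the 8 are common genes themselves, so this is not a separate observation. Their level was 1933 to 3520 CPM (median 2447) in Notch3+/+ and 1321 to 2043 (median 1473) in Notch3-/- mice, and 1044 to 1654 (median 1332) in non-Tg and 863 to 1365 (median 1187) in TgNotch3R169C mice, so the ranges overlapped at both ages. Of the 8 markers 6 were called lower, against 0.318% of all genes, and 4 of the 6 were common genes. Pericyte markers did not move with them (0 of 8 called, group medians of 2916 to 3084 CPM), nor were macrophage, microglia, astrocyte, oligodendrocyte or neuron markers called. With the mean of the 8 SMC markers as a covariate, 26 of 26 lower genes kept their direction, their median went from -0.50 to -0.22, and 1, Xirp1, was still called (-0.98, adjusted p = 1.28e-05). The covariate contains Acta2, Myh11, Lmod1 and Actg2 themselves, beside Tagln, Cnn1, Des and Myocd, and all 8 are also in the contractile list. With Des and Myocd alone, neither of which was called, 19 of 26 were still called and the median was -0.43. The common genes, however, became 31 higher and 12 lower ones, and 1 contractile gene, Actg2, was common in place of 7. In Notch3-/- mice Des rose (0.28) and Myocd fell (-0.48), while in TgNotch3R169C mice both were lower (-0.22 and -0.20). Their average thus mixes opposite shifts in Notch3-/- mice, and the calls kept with it do not measure SMC content. With the 8 markers, 0 contractile genes were called lower. Of the 10 called before, 6 are themselves in this covariate, so the 0 is not a separate result. Of the 9 higher genes, 4 were called with the 8 markers, Cdh13, Col10a1, Syt8 and Olfr560, and 9 with Des and Myocd. The share of these changes that SMC content carries was not tested beyond this.

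Promoters were inspected because contractile genes were the most frequent among the lower ones. RefSeq promoters (250 bases before to 50 after each start, build GRCm38.p6) were found for 26 of the 35 genes, among them 20 lower ones. Both strands were searched for the strict CArG box (CC, 6 letters A or T, GG) and for TGGGAA, the core of the RBPJ site. No promoter of a common gene held both in these exact forms. The TGGGAA match of Acta2 overlaps CCTTGTTTGG, which differs from the strict CArG box by 1 letter and was therefore not counted. TGGGAA was in 9 of 35 promoters of common genes (25.7%), beside 25.6% of all 32851 promoters, and the CArG box in its strict form was in 1 (2.86%), beside 1.63%. The windows of 60 bases below show the matches of an actin, a channel, an actin anchor and a ubiquitin ligase gene, each written 5′ to 3′ on the strand of the gene with the match in capitals (TTCCCA is TGGGAA on the other strand).

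Acta2, chr19:34255374-34255433, minus strand, 21 bases between match and start: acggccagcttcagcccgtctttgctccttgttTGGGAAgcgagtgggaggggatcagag

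P2rx1, chr11:72999021-72999080, plus strand, 91 bases between match and start: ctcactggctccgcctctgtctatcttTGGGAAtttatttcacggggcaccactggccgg

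Pdlim3, chr8:45885427-45885486, plus strand, 3 bases between match and start: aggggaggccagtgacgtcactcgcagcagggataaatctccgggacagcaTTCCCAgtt

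Asb2, chr12:103356031-103356090, minus strand, 54 bases between CArG box and start: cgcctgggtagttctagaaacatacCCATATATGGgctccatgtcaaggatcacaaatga

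The first 3 of these genes varied with the SMC markers from mouse to mouse, and Asb2 did not pass that test (r = 0.173). They were picked from 8 common genes with TGGGAA. Of the others, Csrp1, Mrvi1 and Palld also passed, and Col10a1 (r = -0.04) and Prl (r = -0.07) did not. The share of promoters with TGGGAA was near that of all promoters, and a match of these letters is a description and not a site.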

How the data were processed

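Per the labels, 32 libraries of brain arteries were made with a stranded, poly(A)-selected kit. The values the authors deposited are unnormalized counts of reads for 55357 Ensembl genes, 16744 of them without a read. The submitters' processing notes name bcl2fastq 2.20.0.422, cutadapt 1.10, Bowtie2 2.2.8, STAR 2.5.3a, HTSeq 0.6.1p1 and build mm39. The annotation release is not given in the sources used here, and no coordinates of that build are printed. All columns matched a library by title, and 52081 identifiers were given a symbol.

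edgeR 4.0.16 under R 4.3.3 was applied to these counts (TMM, filterByExpr with a minimum count of 10, glmQLFit and glmQLFTest on 4 group means) over 18555 genes, and p-values were adjusted by the Benjamini-Hochberg method over all of them. The study used DESeq2 between 2 groups, which serves as an alternative here (DESeq2 1.42.0, with limma 3.58.1 as another). Normalized counts are CPM on TMM-scaled totals. The members and gene lists were chosen with earlier results of these data known. Named genes are the common genes with the smallest p (up to 15 in each direction), called members of the lists, and Cdh13, Plin4, P2rx1 and Col10a1; the remaining common genes were named so that each is accounted for, and the 4 markers of the correlation were chosen after values were seen. The fits were tested on simulated counts. Replicates were not duplicates (chi-square per gene at least 10.9). The labels do not say which mice were littermates, and the deviations of same-numbered libraries correlated at r over 0.1 in 4 of 8 pairs of each cohort (r from -0.247 to 0.424), so numbers were not used as pairs.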

Additional observations from a re-analysis of the deposited data

Results flagged for a closer look

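Of 180 groups of 8 values (45 genes in 4 groups), 17 held a mouse whose distance from its nearest neighbour was over 0.526 of the group's range, which chance gives in about 1 group in 20. In Notch3-/- mice these were the highest value of Col10a1 (0.649), Ltbp2 (0.616) and Col6a3 (0.635), all in replicate 1, the highest of Tcap in replicate 2 (0.569) and the lowest of Xirp1 in replicate 3 (0.542). Without replicate 1, Col10a1 and Ltbp2 were still common, while Col6a3 was called (adjusted p = 0.0459) but no longer common.

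In TgNotch3R169C mice they were the lowest Notch3 (replicate 3, 108 CPM, 0.538), which was also the mouse with 1 read of Col10a1, the highest Asb2 (0.588) and Prl (0.669) in replicate 8, the highest Syt8 in replicate 3 (0.528) and the lowest Myl9 in replicate 5 (0.559), a choroid plexus-rich library. Among controls they were Prl (0.997, replicate 5), Actg2 (0.529, replicate 4) and Cdh13 (0.528, replicate 3) of Notch3+/+ mice, and Ect2l (0.568, replicate 8), Acaca (0.561, replicate 8), Efhd1 (0.595, replicate 5) and Pln (0.594, replicate 1) of non-Tg mice.

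The change differed between the mutants by the test of the difference itself (TgNotch3R169C minus Notch3-/-, log2) for 8 of the genes named, 3.68 for Notch3, 1.63 for Xirp1, 1.03 for Pln, 0.926 for Adamtsl2, 0.841 for Susd5, 0.754 for Myh11, 0.664 for Sorbs2 and 0.644 for S1pr3.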

How the results depend on the processing

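The 86 called and 35 common genes became 135 and 55 with DESeq2, 54 called with each cohort fitted alone and 54 and 20 at an adjusted p below 0.01. With the mean of the SMC markers as a covariate 47 were called, 45 of them higher, and 28 were common, of which 4 were among the 35. Common genes numbered 16 without the choroid plexus-rich libraries and 20 without the pituitary-rich ones, settings chosen after seeing the data, and 50 with choroid plexus markers as a covariate. With Des and Myocd as a covariate, also chosen after seeing the data, 43 were common, 19 of them among the 35. With the SMC covariate Kcnmb1 (0.018), Myl9 (0.024) and Tagln (0.051) had small positive values (unadjusted p = 0.83, 0.60 and 0.30, quasi-likelihood test). Tagln is itself 1 of the markers in that covariate. For Kcnmb1 and Myl9 the cause was not tested. Leaving out 1 library gave 73 to 99 called and 20 to 43 common genes, and the 20 arose without non-Tg replicate 1 or without non-Tg replicate 5. Of the 35, 22 were called and 11 common in all 32 such fits (Xirp1, Cdh13, Col10a1, Plin4, P2rx1, Agtr2, Rasl12, Actg2, Asb2, Ltbp2 and Rbpms2). The count of common contractile genes ranged from 1 to 8 over these fits. By the test of the larger of the 2 p-values, 0 genes passed under each alternative. The labels do not say whether replicate numbers pair the mice, and 4 of 8 same-numbered pairs in each cohort correlated at r over 0.1, so they were not taken as pairs. A replicate block gave 84 called and 37 common genes, 24 of them shared. With it Ltbp2 (adjusted p = 0.0566), Rbpms2 (0.0566), Ect2l (0.0577) and Col6a3 (0.133) were among the genes not called. Of 2182 values of single genes, 1812 kept their side of the threshold, 367 lost the call and 3 reversed. Depth limits Col10a1, Olfr560, Lvrn and Gm45670, which had few reads.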
